A study of Mus musculus with 2 samples.

Results

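Genes that are mutated in human hereditary ataxias were examined in the layer of the mouse cerebellar cortex that holds the granule neurons. The set held 32 genes, taken by symbol from the annotation of the array, out of 18194 genes named on it. All 32 were represented, by 69 of the 34958 probe sets with 1 gene symbol. Of these genes 12 had 1 probe set and 20 had at least 2, with up to 6 for a gene. The study profiled 2 samples of this granule cell layer, both from 8-week-old male C57BL/6J mice that the labels describe as intact, with no mutation, agent or other condition named. Frozen brains were cut sagittally at 12 μm and laser capture microdissection isolated the tissue. About 1 ng of total RNA per sample was amplified in 2 cycles and hybridized to an Affymetrix array. Both titles name animal 1 and differ in a final number, used here as sample 1 and sample 2, so the SD between them may be technical and is not a spread between animals.

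Hereditary ataxias are inherited disorders in which the cerebellum and its connections degenerate and movements lose their coordination. Several dominant forms arise from an expanded repeat, either a CAG repeat that is translated into polyglutamine or a repeat outside the coding sequence. Recessive forms often affect the repair of DNA breaks, the upkeep of mitochondria, or the handling of lipids and vitamin E. Many of the genes are expressed in a wide range of tissues. The Purkinje cell is the cerebellar neuron most often described as affected, and granule neurons supply it with excitatory input through the parallel fibres.

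Values are signal intensities in array units, on a linear scale, as deposited. A gene was taken at its brightest probe set over both samples. It is called above background where that probe set exceeded, in each sample, the 95th percentile of 88 measured genes typical of other organs. This threshold was 18.6 in sample 1 and 18.1 in sample 2. For single probe sets the thresholds came from the 119 probe sets of the same genes and were lower, 15.0 and 16.6. Intensities of different probe sets also depend on their probes, so levels of different genes were not compared, and the order of genes in the text is not an order of abundance. With 1 group of 2 samples there was nothing to test between groups, and p-values are left out.

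The tissue was first set against marker genes. All 10 measured granule neuron markers were above background. They included the GABA-A receptor subunit Gabra6 (8189.4 and 8327.0 in samples 1 and 2), the transcription factor Zic1 (6791.6 and 6715.8) and the synaptic organiser Cbln1 (4548.4 and 4388.7) and the transcription factor Pax6 (143.7 and 81.7). Of the other markers measured, 7 of 9 for Purkinje cells were above background, 6 of 8 for astrocytes and Bergmann glia, 5 of 7 for oligodendrocytes, 4 of 8 for Golgi cells and interneurons, 3 of 4 for unipolar brush cells, 3 of 7 for microglia and 3 of 6 for endothelial cells. The share over all named genes was 42.4%, and the counts of the Golgi and interneuron, microglia and endothelial lists lay near it. The summed intensity of the Purkinje list was 2864.7 in sample 1 and 3407.9 in sample 2, and of its 7 members compared 6 were higher in sample 2. Its highest markers were Plcb4 (1799.3 and 1887.1), Pcp4 (345.7 and 505.0) and Car8 (217.6 and 282.0), and its lowest was Lhx5 (0.4 and 5.2). The oligodendrocyte list summed to 7743.2 and 7230.1, from Mbp (5722.1 and 5133.1) down to Opalin (17.4 and 12.4). The astrocyte and Bergmann glia list summed to 4167.4 and 3902.6, from Gja1 (2689.0 and 2419.2) down to Gdf10 (16.6 and 6.0). The microglia list summed to 569.8 and 874.7, with 3 of 4 members compared higher in sample 2. The endothelial list summed to 922.3 and 895.3, with 3 of 4 members compared higher in sample 1. The median log2 difference (sample 1 minus sample 2) of these 4 was 1.14. In the microglia and endothelial lists the 4 members compared had passed in at least 1 sample, and 3 in both. The remaining member of each list passed in sample 1 only, so it entered the comparison through the sample in which it was high. The part of RNA from these cells in the ataxia values was not tested. The ataxia genes cannot be assigned to granule neurons from these data, and fewer cells of a type cannot be told apart from less RNA per cell.

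Of the 32 ataxia genes, 18 (56.2%) were above background in both samples, 5 in 1 sample only and 9 in neither. Over all 18194 named genes this share was 42.4%. In the groups described below, the genes above background in both samples were 4 of 6 polyglutamine genes, 2 of 4 genes with a repeat outside the coding sequence, 4 of 5 mitochondrial genes, 1 of 4 DNA repair genes, 2 of 3 ubiquitin and folding genes, 2 of 3 lipid genes and 3 of 7 with other roles. In sample 2 alone, without sample 1, the DNA repair count was 2 and that of the other roles 5. In that setting the share of all named genes was 47.7%. With the 99th percentile of the background genes the polyglutamine count was 2 and the mitochondrial count 1. Intensities above 100 in both samples were found for 7 of the 32 genes, against 19.1% of all named genes. These 7 were Atxn10, Elovl5, Stub1, Atxn1, Syne1, Atxn2 and Coq8a. The count of 18 depended on the threshold and on how probe sets were combined. It was 9 with the 99th percentile of the background genes, where the share of all genes fell to 23.1%, and 11 where a gene was taken at the average of its probe sets, where that share was 28.4%.

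**Figure D1:**
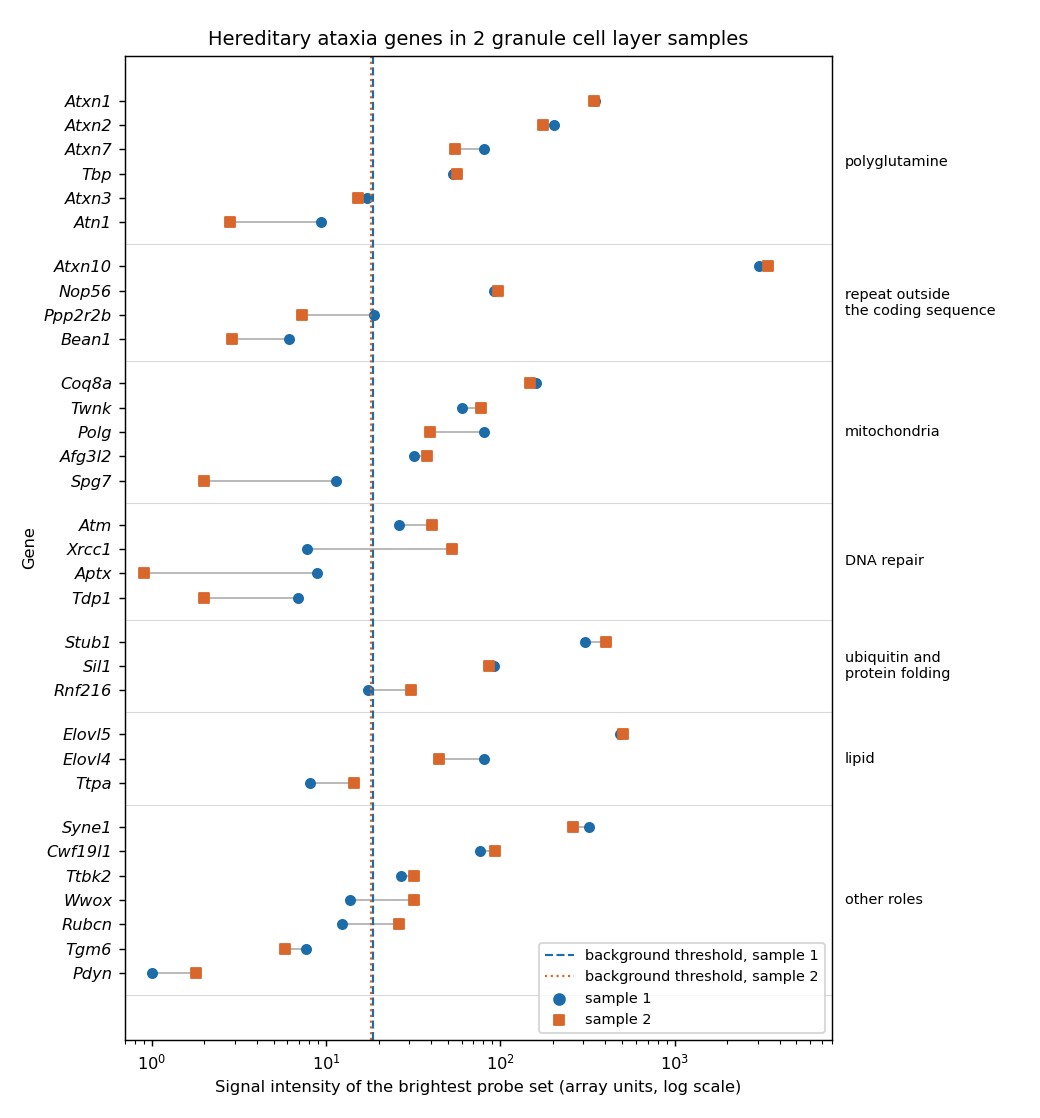
Signal intensity of the brightest probe set of each of the 32 ataxia genes (horizontal log axis, array units) in sample 1 (circles) and sample 2 (squares), with the genes grouped by role and the background thresholds of 18.6 and 18.1 as vertical lines. The 18 genes with both symbols to the right of the lines lie from 26.1 (Atm, sample 1) to 3444.3 (Atxn10, sample 2), and 5 genes, among them Xrcc1, have a symbol on either side.

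The polyglutamine genes carry, in the human disease, an expanded CAG repeat in their coding sequence. Ataxin-1, encoded by Atxn1, is a nuclear protein that represses transcription together with Capicua. Its brightest probe set read 347.8 in sample 1 and 345.7 in sample 2, a mean of 347 ± 1.48 (SD, n = 2). A second probe set of Atxn1 read 27.3 and 95.3, and the third 0.3 and 1.2. The first pair of values was nearly identical, the second differed 3.49-fold, and the third was at background in both samples. Atxn2 encodes an RNA-binding protein that interacts with poly(A)-binding protein. Of its 6 probe sets, the brightest read 201.9 and 174.8 (188 ± 19.2) and another 43.3 and 27.5, both higher in sample 1. The remaining 4 ranged in mean from 6.95 to 15.2, and none of them was above background in both samples.

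Atxn7 encodes a subunit of the SAGA complex, which removes ubiquitin from histones. It read 80.5 and 54.7 (67.6 ± 18.2) at 1 probe set, while the other two, at 4.9 and 13.8 and at 7.4 and 1.0, were at background. Tbp, the gene of the TATA-binding protein of the general transcription machinery, read 53.7 and 56.6 (55.2 ± 2.05), and 9.4 and 13.7 at its second probe set. Both of these genes thus passed by 1 probe set each. The remaining polyglutamine genes did not pass. The deubiquitinase gene Atxn3 read 17.2 and 15.2, just below the gene thresholds in both samples, and passed with the 90th percentile of the background genes. Its second probe set read 2.1 and 8.0. Atn1, which encodes the transcriptional corepressor atrophin-1, had a single probe set at 9.4 and 2.8.

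Among the genes with a disease repeat outside the coding sequence, Atxn10 encodes ataxin-10, a cytoplasmic protein with armadillo repeats, and its human counterpart carries the disease repeat in an intron. Its brightest probe set read 3032.7 and 3444.3, a mean of 3238.5 ± 291. That probe set is of the _x_at kind, which can match several transcripts. The next 3 probe sets of Atxn10 read 105.8 and 174.5, 88.6 and 99.6, and 61.8 and 63.0. The last pair, at 1.4 and 23.5 and at 10.7 and 0.9, was not above background in both samples. Of the 6 probe sets 4 were above background in both samples, and all 4 were higher in sample 2. Both the level and the call of Atxn10 thus depend on the probe set chosen.

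Nop56 encodes a core protein of the small nucleolar particles that guide RNA methylation. It read 91.7 and 96.6 (94.2 ± 3.46) at an _s_at probe set and 22.7 and 9.5 at the other. Ppp2r2b, a regulatory subunit of protein phosphatase 2A known from brain, read 18.8 and 7.3, above the threshold in sample 1 only. Its second probe set read 36.8 in sample 1 and 2.9 in sample 2. Both probe sets were thus higher in sample 1, and neither was above background in sample 2, so no fold is given. Bean1, which encodes a membrane protein that binds the ubiquitin ligase Nedd4, read 6.1 and 2.9 at its single probe set and was at background.

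The mitochondrial genes were above background with 1 exception. Coq8a, which acts in coenzyme Q synthesis, read 160.4 and 147.8 (154 ± 8.91) at an _s_at probe set, and 92.1 and 45.9 at the other, also above background. Twnk, the helicase of the mitochondrial genome, read 60.5 and 77.7 (69.1 ± 12.2). Polg, the catalytic subunit of the mitochondrial DNA polymerase, read 80.9 and 39.6 (60.2 ± 29.2) at its brightest probe set. The second read 28.3 and 46.2, so the pair of probe sets above background moved in opposite directions between the samples, and the third was dim at 10.6 and 9.4. Afg3l2 and Spg7 encode subunits of the m-AAA protease, a quality control enzyme of the inner mitochondrial membrane. Afg3l2 read 31.9 and 38.0 (34.95 ± 4.31) at an _s_at probe set, with its other two at or under 10.3. Spg7 read 11.4 and 2.0 at one probe set and 7.5 and 0.7 at the other, all below the thresholds. Of this pair, then, Afg3l2 was above background and Spg7 was not, and their levels were not compared across probe sets.

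The DNA repair genes were the group with the smallest share above background, though it held only 4 genes and 3 of them had a single probe set. Atm, the kinase that responds to double-strand breaks, read 26.1 and 40.4 (33.2 ± 10.1), with a second probe set at 0.6 and 3.4. Xrcc1, the scaffold of single-strand break repair, read 7.8 in sample 1 and 52.6 in sample 2. It was above background only in sample 2, so no fold is given. Aptx, which removes adenylate from abortive ligation ends, read 8.9 and 0.9. Tdp1, which clears topoisomerase I from DNA ends, read 6.9 and 2.0. Neither of these last genes reached the threshold in either sample, so no level can be given for them beyond that bound.

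In the group of ubiquitination and protein folding, Stub1 had the closest pair of probe sets of the 20 genes measured more than once. It encodes CHIP, a ubiquitin ligase that works with Hsp70 chaperones. It read 305.4 and 405.4 (355 ± 70.7) at one probe set and 258.6 and 333.3 at the other, so both were higher in sample 2. Sil1, a nucleotide exchange factor for the endoplasmic reticulum chaperone BiP, read 91.9 and 85.7 (88.8 ± 4.38). Rnf216, another ubiquitin ligase, read 17.4 and 30.8, which put it above the gene threshold in sample 2 only. By the lower probe set thresholds the same probe set counted as above background in both samples.

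Both elongase genes of the lipid group were above background. Elovl5, an elongase of polyunsaturated fatty acids, read 485.7 and 504.6 (495 ± 13.4) at an _x_at probe set and 95.1 and 124.3 at the other, both above background. Elovl4, which makes very long-chain fatty acids, read 80.1 and 44.7 (62.4 ± 25.0) and 40.3 and 23.7 at its pair of probe sets. Both probe sets of Elovl4 were higher in sample 1, by 0.84 and 0.77 on the log2 scale. Ttpa, the vitamin E transfer protein known mainly from liver, read 8.1 and 14.4 and was at background in both samples.

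Among the remaining genes, Syne1, which encodes the large nuclear envelope protein nesprin-1, read 322.7 and 261.2 (292 ± 43.5). A second probe set of Syne1 read 42.2 and 45.8, above background, and the third 14.0 and 19.3. Cwf19l1, a relative of a yeast splicing factor, read 76.2 and 92.7 (84.5 ± 11.7) and 28.6 and 19.7 at a second probe set, and 0.9 and 0.3 at the third, which was at background. Ttbk2, a kinase needed for the start of cilium assembly, read 26.8 and 32.1 (29.5 ± 3.75), with its other probe sets at 2.7 and 7.1 and at 1.7 and 1.3. These 3 genes passed, Ttbk2 within a factor of 2 of the threshold.

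The others did not pass in both samples. Wwox, an oxidoreductase with WW domains, read 13.7 and 31.8 at the brightest of 4 probe sets, and the remaining 3 ranged in mean from 4.25 to 14.7. Rubcn, a negative regulator of autophagy, read 12.4 and 26.2. Both were above the threshold in sample 2 only. The transglutaminase gene Tgm6 read 7.7 and 5.8. Pdyn, the precursor of the dynorphin opioid peptides, read 1.0 and 1.8. Both were at background in both samples.

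Probe sets of 1 gene often fell on different sides of the threshold. Among the 20 genes measured more than once, 12 combined probe sets that passed in both samples with others that did not, 4 had all above (Coq8a, Stub1, Elovl4 and Elovl5) and 4 had none (Atxn3, Ppp2r2b, Spg7 and Wwox). Over all 9012 such genes the share with both kinds was 48.7%. Of the 69 ataxia probe sets 31 were above background in both samples, against 34.8% of all probe sets with 1 symbol. The kind of probe set went with the call. All 6 _s_at probe sets and 4 of 5 _x_at probe sets of these genes were above background, against 2 of 8 of the _a_at kind and 19 of 50 of the plain _at kind. Over the whole array these shares were 53.9%, 50.8%, 42.1% and 31.1%. For 7 of the 32 genes the brightest probe set was of the _x_at or _s_at kind, and its part in the calls is seen when such probe sets are left out: 15 genes passed, and Atxn2, Afg3l2 and Nop56 did not. The share of all named genes above background fell as well, from 42.4% with such probe sets to 39.3% without them. Atxn10 still passed without them, with 88.6 and 99.6.

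**Figure D2:**
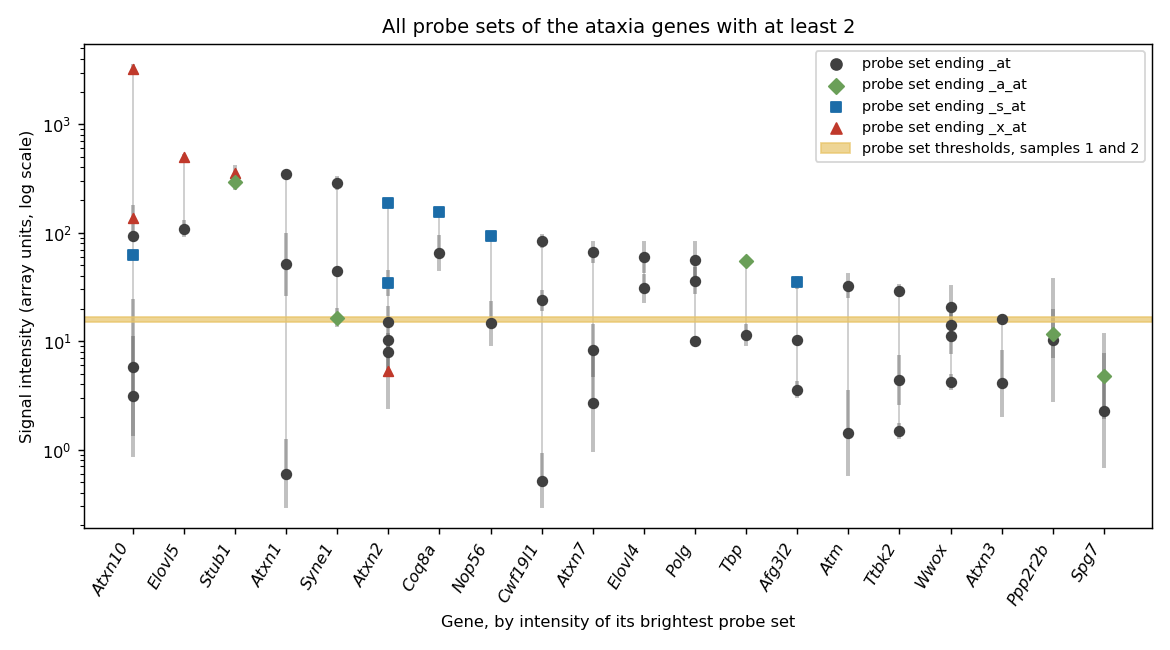
Intensity of every probe set (vertical log axis, array units) of the 20 ataxia genes with at least 2, ordered by the brightest; symbols are geometric means of the 2 samples, thick grey bars join the values of samples 1 and 2, and the yellow band spans the probe set thresholds of 15.0 and 16.6. Atxn10, Atxn1 and Cwf19l1 have probe sets far above and far below the band, whereas those of Stub1, Coq8a, Elovl4 and Elovl5 lie wholly above it.

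The samples were then compared for these genes. Of the 23 ataxia genes that passed in 1 or both samples, 9 were higher in sample 1 and 14 in sample 2. Among them, Ppp2r2b passed in sample 1 only, and Xrcc1, Wwox, Rubcn and Rnf216 in sample 2 only. Each of those genes was higher in the sample through which it entered, so the filter partly set the split of 9 and 14. The median log2 difference (sample 1 minus sample 2) of the 23 genes was −0.08, against −0.06 over all 9443 genes that passed in 1 or both samples. The SD of the difference was 0.83 against 1.04. Of the 23, 5 were at least 2-fold apart, where the share over the 9443 genes was 21.9%. Of these 5 only Polg was above background in both samples. Ppp2r2b passed in sample 1 only, and Xrcc1, Wwox and Rubcn in sample 2 only, so they entered the comparison through the sample in which they were high, and their lower value was not above background. All these differences set 1 array against 1 array and have no replicate check. The count of 5 fell to 1, Xrcc1, when 16 was added before taking log2. Of the 18 genes above background in both samples, 17 were within 2-fold and 15 within 1.5-fold, with Polg as the gene beyond 2-fold (2.04-fold, higher in sample 1). Over all 7720 genes above background in both samples, 11.5% were at least 2-fold apart.

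The direction of the difference was also compared between probe sets. For 10 genes at least 2 probe sets were above background in both samples. In 6 of them (Atxn2, Atxn10, Coq8a, Stub1, Elovl4 and Elovl5) the probe sets moved in the same direction. In the other 4 (Atxn1, Polg, Syne1 and Cwf19l1) they moved in opposite directions. Over all 2767 such genes the probe sets of 49.0% moved the same way, so the count of 6 of 10 is not read as support for the differences.

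The spread between the samples narrowed with intensity. Over all named probe sets with a geometric mean of 300 to 1000, the log2 difference had an SD of 0.35 and 1.23% were 2-fold or more apart. Between 20 and 50 the SD reached 1.02 and 30.3% were 2-fold or more apart, and below 10 these were 2.26 and 62.6%. The ataxia probe sets had an SD of 1.00 (n = 11) between 20 and 50 and 2.12 (n = 23) below 10, and none of the 10 with a mean of 100 or more was 2-fold apart. Of the 69, 4 lay outside the central 90% of probe sets of their intensity class. They were the single probe set of Xrcc1, the second of Atxn1 (27.3 and 95.3), 1 of Ppp2r2b (36.8 and 2.9) and 1 of Atxn10 (1.4 and 23.5).

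**Figure D3:**
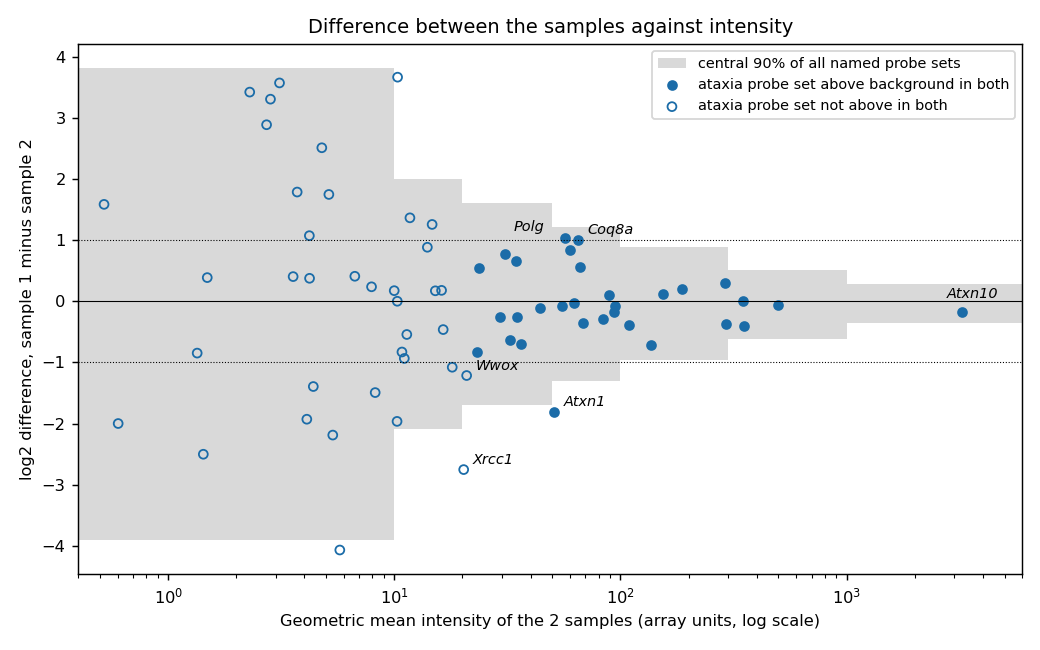
The log2 difference between the samples (sample 1 minus sample 2, vertical axis) of the 69 ataxia probe sets against their geometric mean intensity (horizontal log axis, array units), with the central 90% of all named probe sets of each intensity class in grey and dotted lines at 2-fold. The points close in on 0 with rising intensity, and 4 lie outside the grey area, among them Xrcc1 and the second probe set of Atxn1.

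Other hereditary ataxia genes and partners of the encoded proteins were described the same way, from lists written with earlier results of these data known. Of 42 measured genes on a list of 56 other ataxia genes, 29 (69.0%) were above background in both samples. The share over all named genes was 42.4%. Genes named from the upper end of the list, by the intensity of their own probe sets and with no order of abundance, were the mitochondrial fusion gene Opa1 (843.3 and 943.0), the calcium channel subunit Cacnb4 (729.1 and 888.6), the DNA methyltransferase Dnmt1 (617.5 and 642.7), the potassium channel Kcna1 (536.1 and 727.1), Fgf14, a modulator of sodium channels (666.7 and 511.5), and the elongation factor Eef2 (420.0 and 667.9). The connexin Gjb1 (4.9 and 0.7), the mitochondrial methionyl-tRNA synthetase Mars2 (0.2 and 11.0) and the peptidase Mme (1.6 and 0.4) were at background. The median log2 difference of this list was −0.08 over 32 genes, and 7 of these were 2-fold or more apart between the samples, where the share over all such genes was 21.9%. Of the 32, 29 passed in both samples. The rest entered through the sample in which they were high, with a lower value not above background, and some of the 7 were among them.

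Of 49 measured partners on a list of 53, 38 (77.6%) were above background in both samples. Over all named genes this share was 42.4%. The partners named here were chosen by the intensity of their probe sets, which does not rank their abundance. Hspa8, an Hsp70 chaperone bound by the product of Stub1, read 8723.7 and 8599.7, and Hspa5, the BiP chaperone served by Sil1, read 2597.2 and 2905.9. The scaffold Ppp2r1a (4535.1 and 4748.6) and the catalytic subunit Ppp2ca (1385.9 and 1727.5) of protein phosphatase 2A were above background, while the regulatory subunit Ppp2r2b passed in sample 1 only. Hacd3, a dehydratase of the fatty acid elongation cycle in which Elovl4 and Elovl5 act, read 1926.0 and 2000.4, and the mitochondrial single-strand DNA-binding protein gene Ssbp1, which works beside Polg and Twnk, read 1326.0 and 1092.6. The dynorphin receptor Oprk1 (17.8 and 3.8) was at background, as was its ligand gene Pdyn. The break repair gene Rad50 (3.9 and 6.4) and Gfi1b (0.4 and 3.8) were also at background. The partners had a median log2 difference of 0.08 over 44 genes, of which 9 were 2-fold or more apart, against the same 21.9% over all genes. Of these 44, 38 passed in both samples. The rest entered through the sample in which they were high, with a lower value not above background, and some of the 9 were among them.

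The windows around the transcription starts of these genes were examined for CpG dinucleotides, which mark the promoters of many widely expressed genes. RefSeq windows of 300 bases, from 250 before to 50 after the start on build GRCm38.p6, were matched for 25 of the 32 genes. The motif searched was CG, which reads the same on both strands. A gene is called CpG-rich where 1 of its windows had a GC content of at least 55% and a CpG count of at least 0.6 times that expected from its bases. This held for 17 of the 25 genes (68.0%), against 54.5% of 13269 protein-coding genes on the array. Of the 15 matched genes above background 11 (73.3%) were CpG-rich, and of the 10 others 6 were. Over the array these shares were 73.4% and 37.8%. Spg7, Tdp1, Aptx and Atxn3 were CpG-rich and above the gene threshold in neither sample. Each gene was represented by its window with the most CpG. The windows with the most and the fewest among the 25 genes, and that of Atxn10, which had an intermediate count, are shown with each CG in capitals.
Atxn2, chr5:121711359-121711658, + strand, 39 CpG: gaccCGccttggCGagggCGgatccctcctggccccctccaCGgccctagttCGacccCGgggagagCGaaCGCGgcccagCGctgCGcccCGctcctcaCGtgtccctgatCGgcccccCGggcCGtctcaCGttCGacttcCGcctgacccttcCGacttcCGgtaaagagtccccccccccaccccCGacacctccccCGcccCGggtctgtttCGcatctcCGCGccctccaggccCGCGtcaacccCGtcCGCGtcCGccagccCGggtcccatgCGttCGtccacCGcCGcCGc
Atxn10, chr15:85336005-85336304, + strand, 16 CpG: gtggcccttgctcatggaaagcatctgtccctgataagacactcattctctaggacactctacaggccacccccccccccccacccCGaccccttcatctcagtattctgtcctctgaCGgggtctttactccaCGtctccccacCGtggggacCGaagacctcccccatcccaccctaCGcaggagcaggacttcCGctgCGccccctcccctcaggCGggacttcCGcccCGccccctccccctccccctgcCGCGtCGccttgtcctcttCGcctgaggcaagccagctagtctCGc
Xrcc1, chr7:24546449-24546748, + strand, 7 CpG: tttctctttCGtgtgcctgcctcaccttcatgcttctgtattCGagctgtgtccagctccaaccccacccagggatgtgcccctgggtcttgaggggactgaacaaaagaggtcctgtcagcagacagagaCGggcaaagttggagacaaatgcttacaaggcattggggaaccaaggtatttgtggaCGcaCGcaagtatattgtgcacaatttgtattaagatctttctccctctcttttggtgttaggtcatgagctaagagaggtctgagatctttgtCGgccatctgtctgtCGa
Of the CpG in each window, the first 150 bases held 19 for Atxn2, 4 for Atxn10 and 3 for Xrcc1, and the last 150 bases, which include the start, held 20, 12 and 4. The GC content of the windows was 74.3%, 65.3% and 49.3%. The data hold no measurement of promoter activity, so the counts are a description of the sequence.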

How the data were processed

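Gene expression was measured on Affymetrix arrays in 2 laser-captured samples of 1 group. The values that the authors deposited are linear signal intensities, 1 for each of 45101 probe sets in each sample, made with GCOS per the submitters' processing notes. For its version and settings, the sources used here give nothing. Detection calls were not used here. The medians of the samples were 7.9 and 8.3. The number of arrays limits the precision. Values were used as deposited, with zeros (2 and 1) set to 0.1 before log2. The platform annotation gave 1 symbol for 34958 probe sets, several for 932 and did not list 9211, and 34754 matched RefSeq by gene ID. The brightest probe set was the one with the highest mean log2 intensity. Of 97 background genes 88 were measured, and 3 (Inha, Krt10 and Tff1) exceeded the thresholds in both samples. These genes were chosen as typical of other organs.

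The members and all lists were chosen with earlier results of these data known. All members were named, as were the 6 highest and 3 lowest genes of the other ataxia and partner lists and up to 3 highest and 1 lowest of each marker list. Of these markers, those of granule neurons and Purkinje cells are printed, with the highest and lowest of the oligodendrocyte and astrocyte lists. Alternatives were other percentiles, 39 olfactory receptor genes as background, quantile normalization, median scaling, the mean of all probe sets, omission of _x_at and _s_at probe sets, each sample alone, log2(value + 16) and no background filter. The calls were also run on simulated arrays with planted changes and less spread between samples than in these data. That run checked the code and not the accuracy of the calls here. Python 3.11.15 with pandas 2.3.3 and numpy 2.4.6 was used.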

Additional observations from a re-analysis of the deposited data

How the results depend on the processing

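Quantile normalization and median scaling left the count of 18 ataxia genes and their identity as they were. Each threshold was taken from the same rescaled sample, so these settings could hardly change a call. With the 99th percentile of the background genes, thresholds rose to 80.6 and 56.2, and the counts were 9 ataxia genes, 16 ataxia probe sets, 7 genes with probe sets on both sides, 19 other ataxia genes and 25 partners above background, and 1 ataxia gene 2-fold apart. With the mean of all probe sets 11 ataxia genes passed, and without _x_at and _s_at probe sets 20 ataxia probe sets did. The count of 2-fold differences was 8 with olfactory receptor genes as background, 1 with log2(value + 16) and 10 with no background filter. With sample 1 alone 19 ataxia genes passed, where the share of all named genes was 46.7%. With sample 2 alone 22 passed, where that share was 47.7%. Of 61 recomputed main values 50 stayed within 1.5 times the reported count or, for the median difference, within its standard error, and 11 did not. Among the 50 were the counts above background with quantile normalization and median scaling, which could hardly move. Every recomputed median difference was also among the 50. With 1 array on each side, its standard error can reflect only the spread among genes. Staying within that error therefore does not show that the median was unchanged. The median, −0.08 in the main setting, ranged from −0.27 where probe sets were averaged to −0.005 after median scaling. Above background under each of 9 alternatives were 6 genes, Atxn10, Coq8a, Stub1, Sil1, Elovl5 and Syne1. The matching share over all named genes is not given here, so the count of 6 is not read as a result about the ataxia genes. The alternatives for the counts by role were added after seeing the data. The DNA repair count of 1 was 0 with the 99th percentile or the average over probe sets and 2 without sample 1. The count of 3 for other roles was 1 with either of the former settings. It was 5 without sample 1 or with olfactory receptor genes as background. In the latter setting 52.7% of all named genes passed. The polyglutamine count of 4 was 2 with the 99th percentile and 1 with the average over probe sets. For mitochondrial genes the count of 4 became 1 and 3 in these settings. The lipid count of 2 was 1 with the 99th percentile. For repeats outside the coding sequence the count of 2 was 1 without _x_at and _s_at probe sets. No paired analysis was possible because there is 1 group. Signal near background limits what can be said of the dim genes.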
